A study of Homo sapiens with 26 samples.

Results

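The genes described here are 5 human genes that encode envelope proteins of retroviruses fixed in the germline: ERVH48-1, ERVW-1, ERVFRD-1, ERVMER34-1 and ERV3-1. They were chosen by symbol and by the mean log2 value over all 26 arrays, the brightest row to be used where several rows named a gene. Each had exactly 1 row naming it alone, so that mean decided nothing. All 5 were present among 18417 genes with a row of their own. Transcript levels came from 26 Affymetrix Human Gene 1.0 ST arrays of NCCIT, an established human embryonic carcinoma line. All cells were transfected with Dharmacon siRNA by means of the PepMute reagent, including those of the controls. There were 13 groups of 2 arrays. Single depletions received siRNA against DNMT1 (siDNMT1), DNMT3A (siDNMT3A), DNMT3B (siDNMT3B) or DNMT3L (siDNMT3L). Combined depletions received siRNA against DNMT3A and DNMT3B (3A+3B), DNMT3A and DNMT3L (3A+3L), DNMT3B and DNMT3L (3B+3L), or all of these (3A+3B+3L). With siRNA against DNMT1 as well, the groups were siD1+3A (with DNMT3A), siD1+3B (with DNMT3B) and siD1+3A+3B (with both). The control groups, siNTC-1 and siNTC-2, received control siRNA. Nothing says that duplicates came from separate cultures, so p-values measure only the spread between these arrays, which may be technical. All cells were of 1 line, and the time between transfection and extraction is not given in the sources used here.

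An envelope gene of a retrovirus encodes the surface protein that binds a receptor and fuses membranes, and a few such genes kept open reading frames in the human genome. Syncytin-1 (ERVW-1) and syncytin-2 (ERVFRD-1) fuse trophoblast cells of the placenta through the receptors SLC1A5 and MFSD2A, and suppressyn (ERVH48-1) is a secreted protein that binds SLC1A5 and restrains syncytin-1. ERVMER34-1 encodes HEMO, an envelope protein known from stem cells and placenta that is shed from the cell, and ERV3-1 encodes an envelope protein without fusion activity. Long terminal repeats of endogenous retroviruses are known targets of DNA methylation. DNMT1 copies methylation after replication, DNMT3A and DNMT3B place it on unmethylated DNA, and DNMT3L assists those enzymes but has no methyltransferase activity itself.

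The 250 bases upstream of the start annotated in RefSeq are shown because the study depleted the enzymes that methylate CpG dinucleotides. The members differ in how many CpGs lie there. RefSeq (GRCh38.p14) gave such a window for 3 of the 5 members. Each is on the minus strand of its chromosome and is written 5′ to 3′, with each CpG in capitals. The windows are chr4:52751426-52751675 for ERVMER34-1, chr7:65006688-65006937 for the upstream start of ERV3-1, and chr7:92471425-92471674 for ERVW-1.
ERVMER34-1: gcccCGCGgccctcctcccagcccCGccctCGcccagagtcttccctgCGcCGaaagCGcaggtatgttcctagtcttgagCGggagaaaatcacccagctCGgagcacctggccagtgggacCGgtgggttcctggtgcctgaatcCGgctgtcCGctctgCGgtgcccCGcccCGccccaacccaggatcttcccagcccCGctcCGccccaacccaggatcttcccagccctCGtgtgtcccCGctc
ERV3-1: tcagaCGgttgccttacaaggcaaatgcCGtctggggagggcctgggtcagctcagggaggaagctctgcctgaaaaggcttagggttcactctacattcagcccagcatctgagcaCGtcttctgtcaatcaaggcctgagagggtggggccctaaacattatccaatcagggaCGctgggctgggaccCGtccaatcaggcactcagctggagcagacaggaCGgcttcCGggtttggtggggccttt
ERVW-1: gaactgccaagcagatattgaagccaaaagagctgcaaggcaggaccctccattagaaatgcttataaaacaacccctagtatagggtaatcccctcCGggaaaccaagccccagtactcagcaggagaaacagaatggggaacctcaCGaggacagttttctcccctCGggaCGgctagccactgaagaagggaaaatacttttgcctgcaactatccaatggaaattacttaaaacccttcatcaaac
The ERVMER34-1 window held 19 CpGs and was 69.6% G or C, the ERV3-1 window 7 CpGs and 58.0%, and the ERVW-1 window 4 CpGs and 47.2%. A second RefSeq start of ERV3-1, chr7:64999443-64999692, had 3 CpGs in its window. Over 35116 windows of the same length the median was 11 CpGs, and 93.943% held at least 1. At least 19 CpGs were present in 34.645% of them, at least 7 in 58.908% and at least 4 in 70.694%. No methylation value was used here, and these counts describe sequence only. Whether transcription in NCCIT cells begins at these annotated starts was not tested.

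The values are log2 expression values, on which a difference of 1 is a factor of 2. Duplicate arrays correlated at r of 0.9973 to 0.9989 over genes. In a principal component analysis of the rows that name no gene, the first axis (35.3% of their variance) divided the arrays into 2 sets. Set 1 held siDNMT1, siDNMT3B, siDNMT3L and siNTC-1 (8 arrays), and set 2 the other 8 depletions and siNTC-2 (18 arrays). No label names such sets. Between the controls themselves, siNTC-2 against siNTC-1, 44.7% of all genes differed. Each depletion was therefore set against the mean of both controls (4 arrays) and, beside it, against the control of its own set (2 arrays), called the nearer control below. The target of each siRNA was lower than the mean of both controls in every group that received it, by 0.82 to 1.35 for DNMT1, 0.45 to 0.68 for DNMT3A, 0.16 to 0.84 for DNMT3B and 0.32 to 0.54 for DNMT3L. Against the nearer control, DNMT3B differed by -0.0085 (adjusted p = 0.951) in the arrays labelled 3A+3B+3L, and DNMT3L was also 0.40 lower in siDNMT1 cells. Groups compared with 3A+3B+3L below may therefore differ in more than the target of the siRNA added or exchanged. The same holds for siD1+3A+3B against 3A+3B and against siD1+3B. In each, 1 of the 4 DNMT targets was called higher and 1 lower. Of 11 pluripotency genes 8 were measured, and all 8 lay between 9.09 and 12.45 on every array, while POU5F1, NANOG and TDGF1 had no row of their own. Of these, 1 to 3 were called higher and 0 to 2 lower than the nearer control in a depletion, with DPPA4 higher in 9 of 11 by 0.15 to 0.39. Of 5 neural markers measured 1 to 4 were called lower and none higher, with MAP2 lower in 10 of 11 depletions (-2.33 to -0.38) and OTX2 in 9 (-1.33 to -0.33). MAP2, OTX2 and DPPA4 were named as the genes of their lists with the most calls. Of 8 endoderm markers 0 to 1 were called higher than the nearer control and none lower. Of 5 mesoderm markers 0 to 2 were called higher and 0 to 1 lower. Of all genes, 5.61% to 12% were called higher and 4.49% to 13.3% lower than the nearer control. The part of such shifts in the members' values was not tested. A list of 10 genes induced by ATF4 in the integrated stress response (among them DDIT3 and TRIB3) differed by a median of 1.95 between siNTC-2 and siNTC-1, with 10 of 10 higher in siNTC-2, and also within set 2. Its values are given beside the results that move with it.

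**Figure D1:**
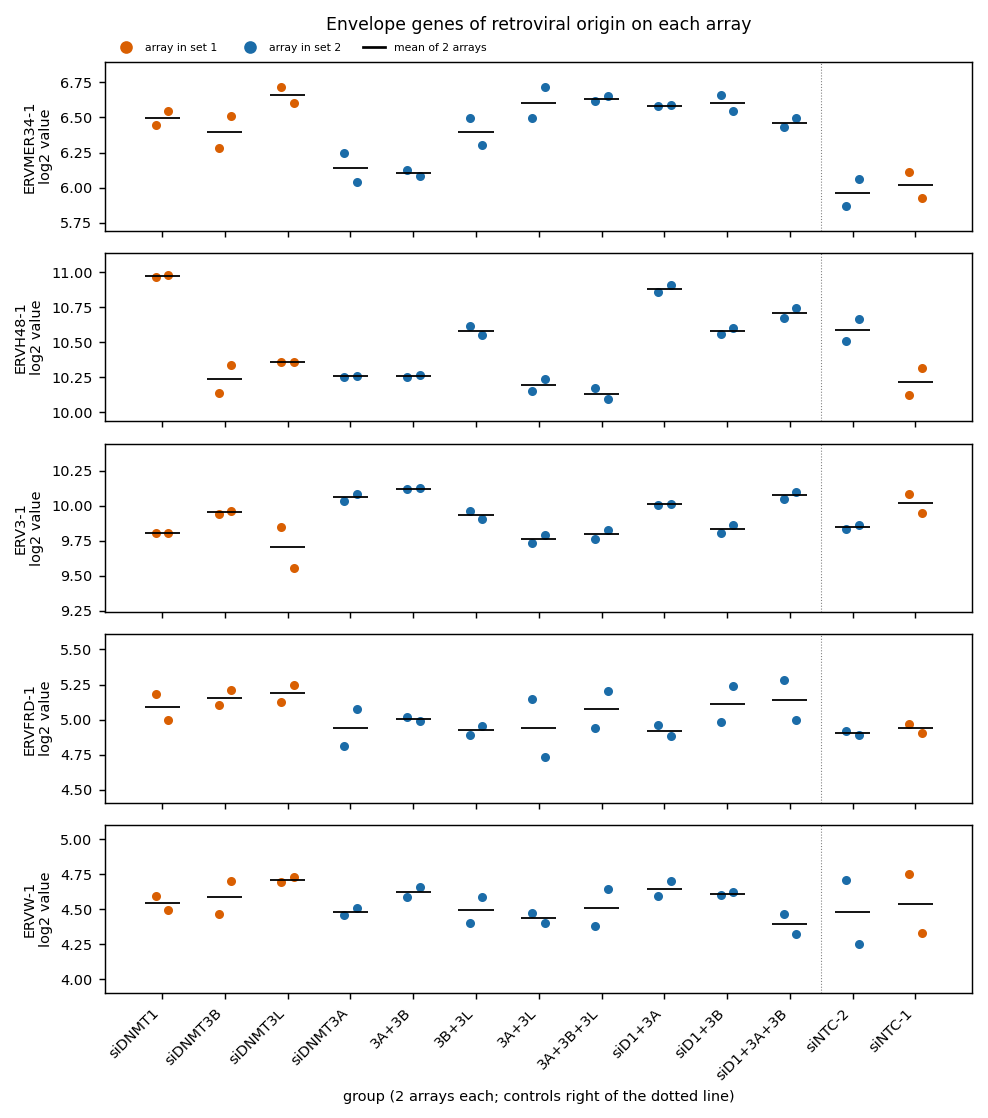
Log2 value of each member (rows) on each array, by group, with depletions left of the dotted line and controls right of it. Points are arrays, coloured by set, and lines are means of 2 arrays. In 9 of 11 depletions both ERVMER34-1 points lie above all 4 control points.

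The members split into a dim pair and a bright pair, with ERVMER34-1 between them. ERVW-1 (4.25 to 4.75 over all arrays) and ERVFRD-1 (4.73 to 5.28) were among the dimmest 40% of genes, and their group means spanned 0.32 and 0.28. ERVMER34-1 ranged from 5.87 to 6.72, ERV3-1 from 9.56 to 10.12 and ERVH48-1 from 10.09 to 10.98, with group means that spanned 0.70, 0.42 and 0.84. On the control arrays ERVMER34-1 had 5.87 to 6.11, below the median of all rows on every array (6.28 to 6.33). Probes of different genes bind with different strength, so these ranges do not rank the genes by transcript number.

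Against the mean of both controls, 20 of 55 tests of the 5 members passed an adjusted p of 0.05 (limma, Benjamini-Hochberg over all 18417 genes). Of these, 15 were higher and 5 lower in the depletion. The share of all genes called in either direction was 30.7% in siDNMT1, 29.5% in siDNMT3A, 35.6% in siDNMT3B, 33.2% in siDNMT3L and 27.4% in siD1+3A. It was 27.6% in siD1+3B, 24.4% in siD1+3A+3B, 26.7% in 3A+3B, 27.4% in 3A+3L, 32.8% in 3B+3L and 25.1% in 3A+3B+3L. Against the nearer control 19 of 55 tests passed, 13 higher and 6 lower, where the share of all genes was 19.8% in siDNMT1, 15.8% in siDNMT3A, 24.2% in siDNMT3B, 19.2% in siDNMT3L, 22.8% in siD1+3A and 25% in siD1+3B. It was 18.6% in siD1+3A+3B, 12.6% in 3A+3B, 22.4% in 3A+3L, 10.1% in 3B+3L and 23.3% in 3A+3B+3L. The calls came from ERVMER34-1, ERVH48-1 and ERV3-1, and none from the syncytin genes.

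**Figure D2:**
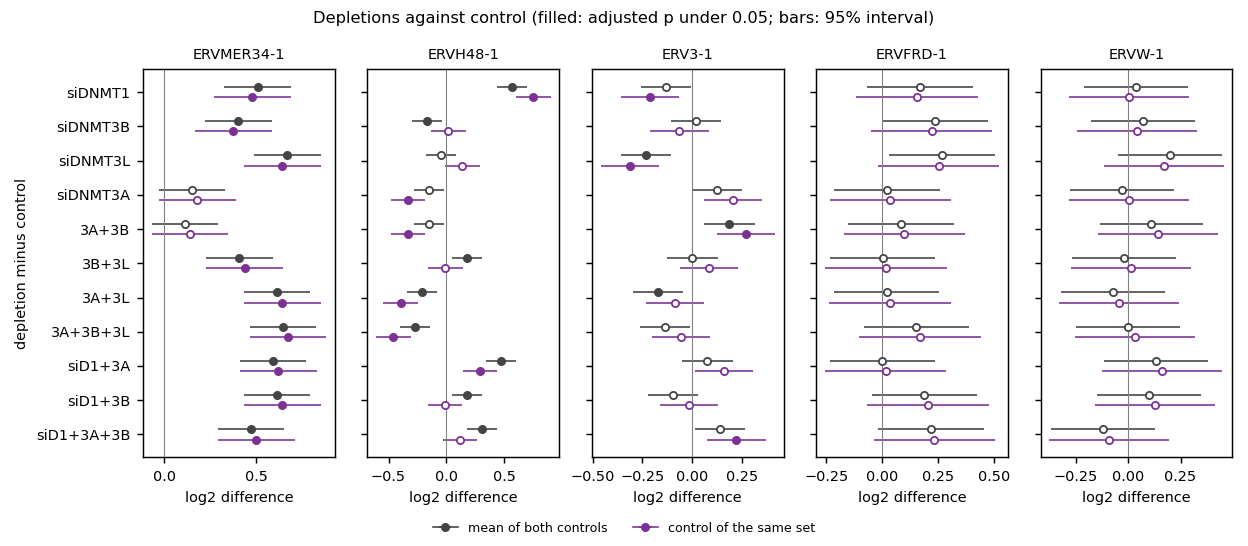
Log2 difference of each depletion minus control for each member, with 95% intervals, against the mean of both controls (grey) and the control of the same set (purple). Filled points have an adjusted p under 0.05. ERVMER34-1 is filled in 9 of 11 depletions in both colours, while ERVH48-1 lies on both sides of 0.

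ERVMER34-1, the gene of the HEMO envelope protein, was higher in 9 of the 11 depletions. It had values of 6.72 and 6.60 in siDNMT3L cells, 6.61 and 6.66 in 3A+3B+3L cells, 6.66 and 6.55 in siD1+3B cells and 6.49 and 6.71 in 3A+3L cells. It had 6.58 and 6.59 in siD1+3A cells, 6.45 and 6.55 in siDNMT1 cells, 6.43 and 6.50 in siD1+3A+3B cells, 6.49 and 6.30 in 3B+3L cells and 6.28 and 6.51 in siDNMT3B cells. The other depletions had 6.24 and 6.04 (siDNMT3A) and 6.13 and 6.08 (3A+3B), and the controls 5.87 and 6.06 (siNTC-2) and 6.11 and 5.92 (siNTC-1). Every array of the 9 groups was above every control array, whereas the siDNMT3A and 3A+3B arrays overlapped the controls. In the order of group means 10 of 12 neighbouring pairs overlapped. The gaps lay between siD1+3A and siDNMT1, and between siDNMT3B and siDNMT3A.

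The difference of ERVMER34-1 from both controls was largest in siDNMT3L, at 0.67 ± 0.09 (SE, adjusted p = 8.37e-06 by limma), which is 159% of control. The smallest called difference was 0.40 ± 0.09 in siDNMT3B (adjusted p = 0.00117), or 132% of control. The same 9 depletions were called against the nearer control, at 0.38 to 0.67. Its difference was 0.15 (adjusted p = 0.202) in siDNMT3A and 0.11 (adjusted p = 0.37) in 3A+3B, with an upper 95% bound of 0.39 against the nearer control in siDNMT3A. Between siNTC-2 and siNTC-1 it differed by -0.05 (adjusted p = 0.684), while the stress list differed by 1.95. The 9 calls were kept under each of 14 alternative settings, with adjusted p up to 0.0499.

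Within set 2, groups that differ by 1 siRNA could be compared directly. Adding siRNA against DNMT3L to that against DNMT3A raised ERVMER34-1 by 0.46 ± 0.10 (adjusted p = 0.00589) in a comparison where 10.1% of all genes were called. Adding it to 3A+3B raised the gene by 0.53 ± 0.10 (adjusted p = 0.00177, 9.42% of genes called). In that comparison 1 of the 4 DNMT targets was called higher and 1 lower, and DNMT3B was not called lower than siNTC-2 in 3A+3B+3L. Adding siRNA against DNMT1 to siDNMT3A raised ERVMER34-1 by 0.44 (adjusted p = 0.00882, 9.62% called). For DNMT1 added to 3A+3B the difference was 0.36 (adjusted p = 0.0551, 3.19% called), with a 95% interval of 0.15 to 0.57, and it was called under 3 alternative settings (adjusted p 0.0251 to 0.0382). In siD1+3A+3B minus 3A+3B, 1 of the 4 DNMT targets was also called higher and 1 lower. Adding siRNA against DNMT3B to siDNMT3A gave -0.04 with an interval of -0.25 to 0.17, where 0.0923% of genes were called. The remaining additions, DNMT3A siRNA to siD1+3B (-0.14, 3.02% called) or to 3B+3L (0.24) and DNMT3B siRNA to siD1+3A (-0.12, 0.57% called) or to 3A+3L (0.03, 0.0977% called), gave no ERVMER34-1 call. Over all 9 additions, 8 of 45 tests of the members were called, 5 higher and 3 lower. The siDNMT3A calls depended on single arrays. Without 3A+3L replicate 2 or siDNMT3A replicate 2 the DNMT3L difference was 0.35 or 0.36 (adjusted p 0.0708 and 0.0749). The DNMT1 difference was 0.44 without either siD1+3A array and 0.34 without siDNMT3A replicate 2 (adjusted p 0.06, 0.0612 and 0.108).

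The stress genes moved in the same comparisons. Their median log2 difference was -1.32 for 3A+3L minus siDNMT3A, -1.55 for 3A+3B+3L minus 3A+3B and -1.04 for siD1+3A minus siDNMT3A (10 of 10 called lower in each). It was -0.58 for siD1+3A+3B minus 3A+3B (9 of 10 called lower). In 3B+3L cells the stress list averaged 9.57, against 9.59 in siNTC-2 cells, and ERVMER34-1 was 0.44 higher (adjusted p = 0.00841). In siDNMT3L cells the list averaged 7.38, against 7.50 in siNTC-1 cells, and ERVMER34-1 was 0.64 higher (adjusted p = 0.000169). There 4 of the 10 stress genes were called lower and 1 higher (median -0.23). In siDNMT3A and 3A+3B cells, where ERVMER34-1 had no call, the list averaged 9.20 and 9.34. Apart from 3B+3L, it averaged 7.80 to 8.73 in the other depletions of set 2. The part of the stress genes in the ERVMER34-1 differences was not tested.

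**Figure D3:**
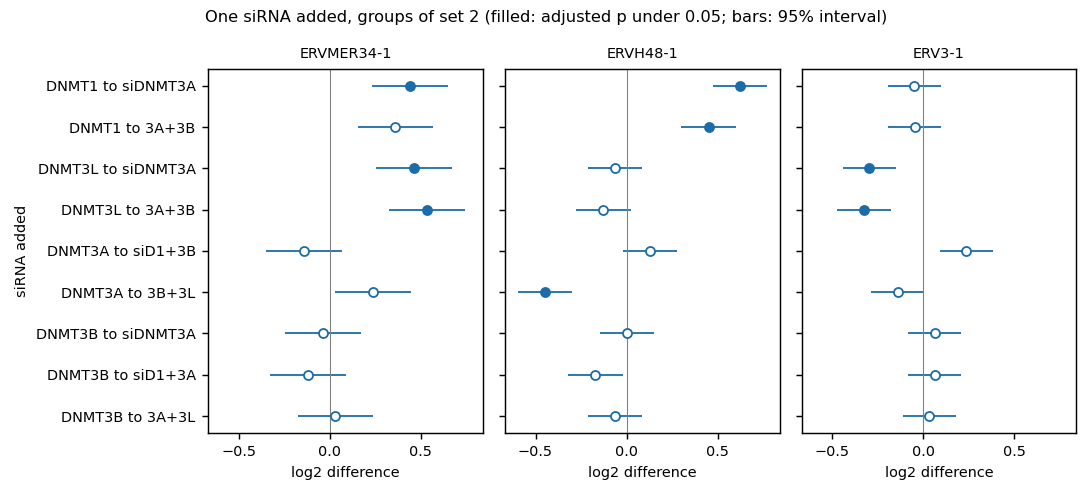
Log2 difference of ERVMER34-1, ERVH48-1 and ERV3-1 when 1 siRNA was added to a depletion of set 2, with 95% intervals. Filled points have an adjusted p under 0.05. DNMT1 added to siDNMT3A is filled for ERVMER34-1 and ERVH48-1, and DNMT3L added to siDNMT3A is filled upward for ERVMER34-1 and downward for ERV3-1.

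RASL11B, the nearest measured gene at higher coordinates on chromosome 4 and a gene of a small GTPase, was among the 3 genes most like ERVMER34-1 once each group mean was taken relative to its set. The Pearson r over the 13 group means was 0.93 on that scale and 0.80 without the centring, each point being the mean of 2 arrays. RASL11B was called higher than the nearer control in 8 of 11 depletions, by 0.45 to 0.93. In 3B+3L it had 7.47 and 7.59, against 7.28 and 7.28 in siNTC-2, a difference of 0.25 (adjusted p = 0.0626). In siDNMT3A and 3A+3B RASL11B differed by -0.11 and -0.10 from siNTC-2, neither called, and by -0.31 and -0.30 from both controls, both called. ERVMER34-1 had no call in these 2 groups. Adding DNMT3L siRNA raised RASL11B by 1.03 over siDNMT3A and by 1.04 over 3A+3B (adjusted p 2.32e-07 and 1.31e-07). RASL11B was also 0.39 lower in siNTC-2 than in siNTC-1 (adjusted p = 0.000587), a difference that ERVMER34-1 did not show. USP46, the nearest measured gene on the other side and a deubiquitinase, was called higher in 4 of 11 depletions against the nearer control, by at most 0.34, and its centred r was 0.66. The other genes most like ERVMER34-1 were MB21D2 (0.96) and COIL (0.94) on the centred scale, and NCOA4, VAMP8 and SLC39A10 (0.93, 0.93 and 0.92) without centring.

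**Figure D4:**
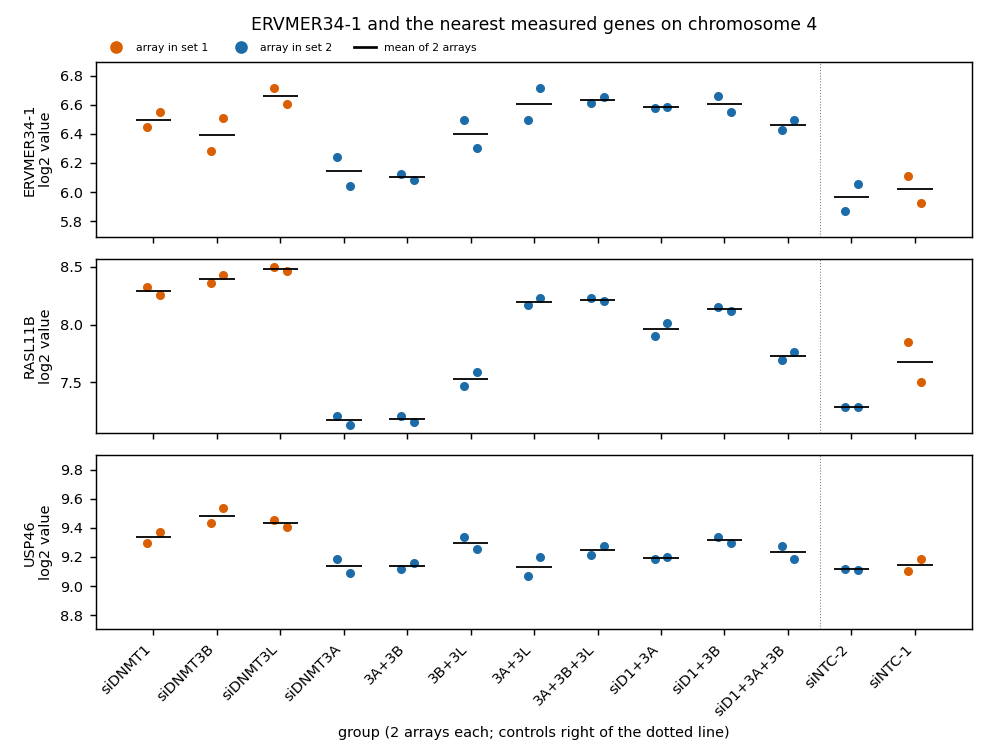
Log2 values of ERVMER34-1 and of RASL11B and USP46, the nearest measured genes on either side of it, on each array. Depletions are left of the dotted line and controls right of it, points are coloured by set, and lines are means of 2 arrays. RASL11B lies between 7.13 and 7.21 in siDNMT3A and 3A+3B, below its siNTC-2 points at 7.28.

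ERVH48-1, the suppressyn gene, was highest where DNMT1 was depleted alone or with DNMT3A. It had values of 10.97 and 10.98 in siDNMT1 cells, 10.86 and 10.91 in siD1+3A cells, 10.67 and 10.75 in siD1+3A+3B cells and 10.56 and 10.60 in siD1+3B cells. Of the depletions without DNMT1 siRNA, 3B+3L had 10.61 and 10.55, siDNMT3L 10.36 and 10.36, 3A+3B 10.25 and 10.27 and siDNMT3A 10.26 and 10.26. The lowest were siDNMT3B with 10.14 and 10.34, 3A+3L with 10.15 and 10.24 and 3A+3B+3L with 10.17 and 10.09. The controls lay apart, at 10.51 and 10.67 in siNTC-2 cells and 10.13 and 10.31 in siNTC-1 cells. Arrays of siDNMT1, siD1+3A and siD1+3A+3B stood above all 4 control arrays and did not overlap each other. Of the 12 neighbouring pairs in the order of group means 7 overlapped.

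The control arrays differed by 0.37 ± 0.07 for ERVH48-1 (siNTC-2 minus siNTC-1, adjusted p = 0.000335), so its calls depended on the control. Only siDNMT1 and siD1+3A were called higher with both, at 0.57 and 0.48 against both controls (adjusted p 1.39e-06 and 1.74e-05) and at 0.75 and 0.29 against the nearer one. Only 3A+3L and 3A+3B+3L were called lower with both, at -0.21 and -0.27 against both controls and -0.39 and -0.46 against the nearer one. Against siNTC-1 alone neither was called, at -0.025 (adjusted p = 0.807) for 3A+3L and -0.088 (adjusted p = 0.354) for 3A+3B+3L. siD1+3A+3B differed by 0.31 (adjusted p = 0.00132) against both controls and by 0.12 (adjusted p = 0.28) against siNTC-2. For siD1+3B and 3B+3L the differences of 0.18 each became -0.0092 and -0.0079 against siNTC-2, and for siDNMT3B -0.17 became 0.019 against siNTC-1. siDNMT3A and 3A+3B were called lower against the nearer control, each by 0.33, and not against both controls (-0.15 each, adjusted p 0.0821 and 0.0912). Both were called there, at -0.19 to -0.18, without siNTC-1 replicate 1 or siNTC-2 replicate 1. Without 3A+3L replicate 1, siNTC-1 replicate 2 or siNTC-2 replicate 2 the 3A+3L difference from both controls was between -0.17 and -0.16, and without 3A+3B+3L replicate 2 that of 3A+3B+3L was -0.23, none of them called. The calls of siD1+3B and 3B+3L ended without either of their own arrays, siNTC-1 replicate 1 or siNTC-2 replicate 1 (0.13 to 0.21). That of siDNMT3B ended without its replicate 1, siNTC-1 replicate 2 or siNTC-2 replicate 2 (-0.13 to -0.06).

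Comparisons of depletions with each other need no control. siRNA against DNMT1 raised ERVH48-1 by 0.62 ± 0.07 over siDNMT3A (adjusted p = 2.8e-05) and by 0.45 ± 0.07 over 3A+3B (adjusted p = 0.00129). siDNMT1 cells were 0.73 above siDNMT3B cells (adjusted p = 1.65e-06, 18.3% of all genes called) and 0.61 above siDNMT3L cells (adjusted p = 2.24e-05, 12.6% called). With only those groups fitted, the comparison with 3A+3B gave an adjusted p of 0.059. There 1 of the 4 DNMT targets was called higher and 1 lower. Adding siRNA against DNMT3A to 3B+3L lowered the gene by 0.45 (adjusted p = 0.000186, 18.9% called), whereas adding it to siD1+3B gave 0.13 (adjusted p = 0.421). In 3A+3B+3L minus 3B+3L, 2 of the 4 DNMT targets were called higher and 1 lower. Adding DNMT3L siRNA to siDNMT3A or 3A+3B gave -0.06 and -0.13, with intervals that included 0. The median difference of the stress list was -1.77 for 3A+3B+3L minus 3B+3L (10 of 10 lower) and -0.46 for siDNMT1 minus siNTC-1 (7 of 10 lower and 1 higher). Its mean was 8.21 in siD1+3A and 8.02 in 3A+3L, where ERVH48-1 averaged 10.88 and 10.19. The part of the stress genes in the ERVH48-1 differences was not tested.

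For ERVH48-1 the effect of exchanging 1 siRNA differed with its partner. Exchanging DNMT3L for DNMT1 siRNA beside DNMT3A raised it by 0.69 ± 0.07 (siD1+3A minus 3A+3L, adjusted p = 6.11e-05), where 0.744% of all genes were called. The same exchange beside DNMT3B gave -0.00 ± 0.07 (siD1+3B minus 3B+3L), with an interval of -0.15 to 0.15 (20.3% of genes called). The difference of these differences was 0.69 ± 0.10 (adjusted p = 0.000239, 8.94% of genes called). Where both DNMT3A and DNMT3B siRNA were present the exchange gave 0.58 (siD1+3A+3B minus 3A+3B+3L, adjusted p = 0.000145, and 0.0607 with only those groups fitted). The stress list also differed with the partner, averaging 8.21 in siD1+3A against 8.02 in 3A+3L, 7.87 in siD1+3B against 9.57 in 3B+3L, and 8.73 in siD1+3A+3B against 7.80 in 3A+3B+3L. Its part in the ERVH48-1 result was not tested. These comparisons were added after the data were examined.

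MAEL, a gene of the germline piRNA pathway, had the pattern most like ERVH48-1 over the 13 group means (Pearson r = 0.91, and 0.95 relative to the set means). It had 6.33 and 6.34 in siDNMT1 cells, against 4.69 and 4.53 in siNTC-1 cells, a rise of 1.72 (adjusted p = 8.63e-09). It was 0.53 lower in siDNMT3A, 0.79 lower in 3A+3L and 0.86 lower in 3A+3B+3L than in siNTC-2 (adjusted p 0.00286, 4.97e-05 and 1.9e-05). The siNTC-2 arrays had 5.70 and 5.46, above those of siNTC-1. In siDNMT3A, 3A+3L and 3A+3B+3L MAEL had 4.66 to 5.10, within or above the range of siNTC-1. Unlike ERVH48-1, MAEL was called higher in all 4 depletions with DNMT1 siRNA against the nearer control, at 0.59 to 1.72. The next genes were the histone genes H3C11 (0.91) and H4C6 (0.88), and relative to the set means RBM38 (0.92) and H3C11 (0.91). The nearest measured genes on chromosome 21 did not share the pattern. NDUFV3, a subunit gene of respiratory complex I, was called lower than the nearer control in 8 of 11 depletions, by up to 0.45, and its r with ERVH48-1 was -0.03. PKNOX1, a homeobox gene, was called in none of the 11 depletions.

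ERV3-1 moved less than ERVMER34-1 and ERVH48-1, and in both directions. It had 10.12 and 10.12 in 3A+3B cells, 10.05 and 10.10 in siD1+3A+3B cells, 10.03 and 10.08 in siDNMT3A cells and 10.01 and 10.01 in siD1+3A cells. It had 9.94 and 9.96 in siDNMT3B cells, 9.96 and 9.91 in 3B+3L cells, 9.81 and 9.87 in siD1+3B cells and 9.80 and 9.80 in siDNMT1 cells. The lowest groups were 3A+3B+3L with 9.76 and 9.83, 3A+3L with 9.74 and 9.79 and siDNMT3L with 9.85 and 9.56, and the controls had 9.84 and 9.87 (siNTC-2) and 10.08 and 9.95 (siNTC-1). Most groups overlapped the range of the controls, and only 3A+3B lay above it, while siDNMT1, 3A+3L and 3A+3B+3L lay below it.

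Against both controls ERV3-1 was lower in siDNMT3L by 0.23 ± 0.06 (adjusted p = 0.00576) and in 3A+3L by 0.17 (adjusted p = 0.0425), and higher in 3A+3B by 0.19 (adjusted p = 0.0269). Against the nearer control siDNMT3L (-0.31) and siDNMT1 (-0.21) were lower, and 3A+3B (0.27) and siD1+3A+3B (0.22) higher. Adding DNMT3L siRNA lowered the gene by 0.30 ± 0.07 from siDNMT3A (adjusted p = 0.0109) and by 0.33 ± 0.07 from 3A+3B (adjusted p = 0.00513), opposite in sign to ERVMER34-1. The stress list fell in the same comparisons, with medians of -1.32 and -1.55. In 3A+3B+3L minus 3A+3B, 1 of the 4 DNMT targets was called higher and 1 lower. siDNMT3B cells were 0.25 above siDNMT3L cells (adjusted p = 0.0256, 10.8% of genes called), and siD1+3A+3B cells 0.28 above 3A+3B+3L cells (adjusted p = 0.0497, 1.75% called).

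Several ERV3-1 calls rested on single arrays. Without siDNMT3L replicate 2 the siDNMT3L difference from both controls was -0.09 (adjusted p = 0.295). The 3A+3L call ended without either 3A+3L array, siNTC-1 replicate 1 or either siNTC-2 array (-0.20 to -0.14), and the 3A+3B call without either 3A+3B array, siNTC-1 replicate 2 or siNTC-2 replicate 1 (0.15 to 0.19). The fall from siDNMT3A to 3A+3L was -0.27 to -0.32 and not called without 3A+3L replicate 1 or either siDNMT3A array, and that from 3A+3B was -0.29 without 3A+3B+3L replicate 1 (adjusted p = 0.0651). The siDNMT3B minus siDNMT3L call ended without either siDNMT3B array or siDNMT3L replicate 2 (0.11 to 0.26), and the siD1+3A+3B minus 3A+3B+3L call without any 1 of its 4 arrays (0.25 to 0.31).

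ERV3-1 overlaps the zinc finger gene ZNF117 on chromosome 7 in the RefSeq table, which also lists a readthrough gene of the pair that had no row here. Probes for the shared part of such transcripts cannot tell them apart. ZNF117 was called higher than the nearer control in 4 of 11 depletions, at 0.18 to 0.28. In siDNMT3L ZNF117 was 0.18 higher (adjusted p = 0.0483), while ERV3-1 was 0.31 lower, and in 3A+3B both were higher, by 0.28 and 0.27. Over the 13 group means their r was 0.47. The genes most like ERV3-1 were FZD3 (0.83), RNF152 (0.83) and PRKAB1 (0.81), and relative to the set means TMTC4 (0.97), SLC44A1 (0.90) and CPSF1 (0.88).

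The syncytin genes ERVW-1 and ERVFRD-1 gave no call in any depletion, against both controls or the nearer one, and none when 1 siRNA was added. ERVFRD-1 was highest in siDNMT3L, at 5.13 and 5.25, against 4.92 and 4.89 in siNTC-2 and 4.97 and 4.91 in siNTC-1. Its difference from both controls there was 0.27 ± 0.11 (adjusted p = 0.0769), and it passed an unadjusted p of 0.05 in 2 of 11 depletions, with intervals over the 11 from -0.24 to 0.50. ERVW-1 was also highest in siDNMT3L, at 4.69 and 4.73, against 4.71 and 4.25 in siNTC-2 and 4.75 and 4.33 in siNTC-1. Its control arrays spanned as wide a range as all depletions together. Its difference in siDNMT3L was 0.20 ± 0.12 (adjusted p = 0.216), it passed an unadjusted p of 0.05 in 0 of 11 depletions, and its intervals ran from -0.37 to 0.45. All 12 neighbouring pairs in the order of group means overlapped for both genes. Signal this low is compressed by background, so changes within these intervals were not detectable. GATAD1, which overlaps ERVW-1 on chromosome 7, was called higher than the nearer control in 4 depletions and lower in 1, and its r with ERVW-1 was -0.20. Among measured genes, r over the 13 group means was highest with DDI1, SFTPD and KRT7 for ERVW-1 (0.84, 0.82 and 0.81). For ERVFRD-1 it was highest with CCNYL6, OR1A1 and SYNPO2L (0.85, 0.83 and 0.83). These genes were picked as the extremes of many, for members with signal close to background. How high r reaches by chance was not tested, so no likeness was concluded from them.

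The receptors of these envelope proteins were measured and moved in opposite directions. SLC1A5, a neutral amino acid transporter that binds syncytin-1 and suppressyn, had 10.25 and 10.33 in siDNMT1 cells, 10.30 and 10.34 in siD1+3A cells and 10.25 and 10.35 in 3A+3L cells. It had 10.84 and 10.92 in siNTC-2 cells and 10.66 and 10.66 in siNTC-1 cells, above all those arrays. SLC1A5 was called lower than the nearer control in 7 of 11 depletions, by 0.17 to 0.58, and in these and siDNMT3L against both controls. In 3B+3L its values were 11.05 and 10.92, a difference of 0.22 (adjusted p = 0.00292) from both controls and 0.11 (adjusted p = 0.304) from siNTC-2. SLC1A4 is a related transporter that syncytin-1 can also use. It was called lower than siNTC-2 in 5 depletions of set 2, at differences of -1.44 to -0.74. No depletion of set 1 was called against siNTC-1. The controls lay apart, with SLC1A4 at 7.57 and 7.66 in siNTC-2 and 6.34 and 5.98 in siNTC-1. Those 5 depletions had 6.14 to 6.94, within or above the range of siNTC-1. Against both controls SLC1A4 was called in 10 depletions, in both directions.

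MFSD2A, a lysophospholipid transporter and the syncytin-2 receptor, was called higher in 8 of 11 depletions, by 0.23 to 0.46 against both controls and, in the same 8, by 0.19 to 0.52 against the nearer one. It had 7.99 and 8.01 in 3A+3B+3L cells and 7.94 and 8.06 in siD1+3B cells. The controls had 7.46 and 7.50 (siNTC-2) and 7.85 and 7.72 (siNTC-1). Of the called groups, 3A+3L (7.84 and 7.93) overlapped siNTC-1, and siD1+3A+3B (7.86 and 7.88) lay just above it. The 3 depletions without a call were siDNMT3A, 3A+3B and 3B+3L. FURIN, the protease that can cleave envelope precursors, was called higher in 11 of 11 depletions against both controls and in 7 against the nearer one. Amino acid transporters such as SLC1A4 and SLC1A5 are known targets of ATF4, and the stress list had median differences of -1.92 to -0.72 from siNTC-2 in the 5 depletions where SLC1A4 was lower. Its part in the receptor values was not tested.

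**Figure D5:**
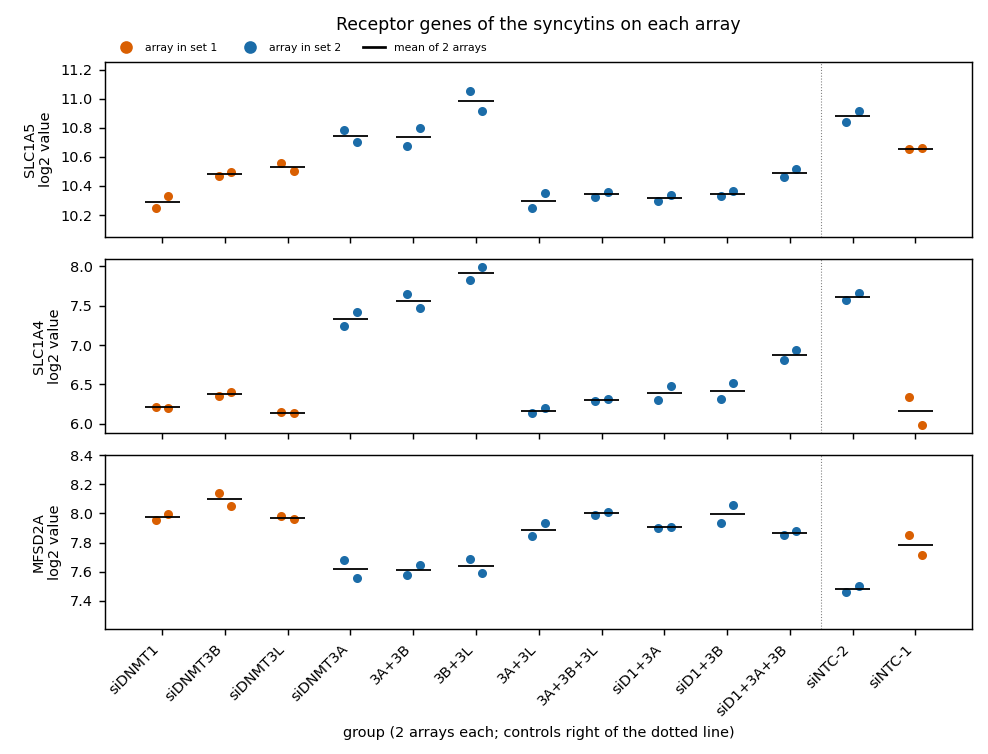
Log2 values of SLC1A5, SLC1A4 and MFSD2A on each array, by group, with depletions left of the dotted line and controls right of it. Points are coloured by set and lines are means of 2 arrays. SLC1A4 lies between 7.24 and 7.99 in siDNMT3A, 3A+3B, 3B+3L and siNTC-2, and between 5.98 and 6.94 on all other arrays.

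The other genes derived from retroviruses or retrotransposons were called in both directions. Of 48 other genes derived from retroviruses or retrotransposons 27 were measured. Against the nearer control 1 to 4 of them were called higher and 1 to 5 lower in a depletion, where 5.61% to 12% of all genes were called higher and 4.49% to 13.3% lower, with medians of -0.03 to 0.04, where the medians of all genes were -0.03 to 0.00. ZCCHC12, a gene of retrotransposon Gag origin, was called higher against both controls and against the nearer one in 9 depletions, by up to 1.46 (siD1+3B against siNTC-2). PEG10, an imprinted gene of retrotransposon origin that the placenta needs, was lower in siDNMT3L by 0.62 (adjusted p = 3.42e-08). The envelope gene ERVV-1 gave no call against both controls or the nearer one. Of other listed genes of endogenous retroviruses, ERVK13-1 was called in 6 depletions against both controls and 5 against the nearer one. ERVK3-1 was called in 8 and 2. Of 8 genes known to contain or adjoin HERV-H elements 4 were measured. Against both controls 1 to 3 of the 4 were called higher and 0 to 2 lower in a depletion. There 12.5% to 19% of all genes were called higher and 11.5% to 19.8% lower. The median of the 4 was -0.004 to 0.28, where the medians of all genes were -0.02 to -0.01. Against the nearer control 0 to 3 were called higher and 0 to 1 lower, with medians of -0.03 to 0.43. In siNTC-2 against siNTC-1, 2 of the 4 were called higher and 2 lower. Of these 4, HHLA1 was higher than both controls in 11 of 11 depletions, by 0.18 to 0.81, and than the nearer control in 10.

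The trophoblast genes were called in both directions. Of 47 listed 36 were measured, and 1 to 4 were called higher and 2 to 8 lower in a depletion than in the nearer control, beside the same shares of all genes (5.61% to 12% higher, 4.49% to 13.3% lower). The mean over the list ranged from 5.33 to 5.41 in depletions, against 5.39 in siNTC-2 and 5.42 in siNTC-1. GCM1, the transcription factor that activates the syncytin genes, ranged from 4.18 to 4.49 with no call. TFAP2A, a factor of trophoblast that other lineages also use, was lower in 11 of 11 depletions, by 0.43 to 1.68 against the nearer control. Of 27 genes of silencing pathways 26 were measured, with 1 to 7 called higher and 2 to 5 lower than the nearer control in a depletion and medians of -0.05 to 0.04. CHAF1B, a subunit of the histone chaperone CAF-1, was lower than the nearer control in 11 of 11 depletions by 0.19 to 0.52, and HELLS, a chromatin remodeller needed for DNA methylation, was higher in 7 by 0.21 to 0.55.

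The 5 members did not vary together. Over the 13 group means, which lie in 2 sets, r between pairs of members ran from -0.56 (ERVMER34-1 with ERV3-1) to 0.52 (ERVFRD-1 with ERVMER34-1), and ERVH48-1 had r of 0.01 to 0.19 with each of the others. Whether the effect of DNMT1 or DNMT3L siRNA differed with DNMT3B siRNA was tested as an interaction beside DNMT3A siRNA. No member was called (limma, 0 of 10 tests, also 0 of 10 at an unadjusted p of 0.05), where 0.076% of all genes were called for DNMT1 and 0.0326% for DNMT3L. The intervals ran from -0.37 to 0.36 for ERVMER34-1 and from -0.80 to 0.54 over all members, so differences within them could not be seen. DNMT3B was not called lower than siNTC-2 in 3A+3B+3L, and none of the 4 DNMT targets was called between 3A+3B+3L and 3A+3L. The DNMT3L test therefore could not decide whether its effect differs with DNMT3B depletion.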

How the data were processed

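Transcript levels were measured on 26 arrays of 13 groups, which came from the sample titles. Each deposited column holds log2 values, 1 per transcript cluster, whose log base follows from their range (3.04 to 14.87). Partek is named per the submitters' processing notes without a role or version. How the authors corrected, summarised and normalized the signal, and the genome build of the probes, is not stated in the sources used here. Array medians were 6.28 to 6.33, so the values look normalized between arrays, and a shift common to all genes would not be seen. The number of arrays limits the precision.

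The table held 33297 rows, of which 19460 named 1 gene, 1754 several and 12083 none. Rows with 1 symbol gave 18417 genes, with the brightest row where several named a gene. In limma 3.58.1 under R 4.3.3, lmFit estimated 13 group means from the 26 arrays, with 13 residual degrees of freedom, and eBayes moderated the variances. Two-sided p-values were adjusted (Benjamini-Hochberg) over the 18417 genes in each comparison, and a gene was called under 0.05. On simulated data the fit recovered 59% of changes of 0.3 and 98% of changes of 0.6 on the log2 scale for siDNMT1 against both controls (18417 genes). Few genes changed there and the simulated controls did not differ, unlike in the data, so these rates may not hold for the comparisons above. The sets of arrays were inferred from expression values and are not groups of the study.

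Genes named are the members, the 4 targets, the receptors, up to 4 genes of each of 11 lists with the most calls, the 3 genes most like each member, and genes that overlap or flank a member in the RefSeq table. GCM1 and ERVV-1, which had no calls, are named besides, chosen after their values were seen. So are ERVK13-1 and ERVK3-1, which had calls. The members and lists were chosen with earlier results of these data known. The genes most like a member were picked by the highest r among measured genes. How high r reaches by chance was not tested. Replicate numbers did not pair the samples: over 78 pairs of groups the deviations of like-numbered arrays correlated at -0.26 to 0.19, and 9 exceeded 0.1. Alternatives were quantile normalization, leaving out the dimmest 40% of genes, a replicate block, a robust prior with a trend, either control alone, the nearer control, only the groups compared, and each array left out in turn. Exchanges of 1 siRNA for another were added after the data were examined.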

Additional observations from a re-analysis of the deposited data

Results flagged for a closer look

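The exchange of DNMT3L siRNA for DNMT1 siRNA had an effect on ERVH48-1 that differed by 0.69 between cells with DNMT3A siRNA and cells with DNMT3B siRNA, by a test of the difference itself (adjusted p = 0.000239, limma). The effect was 0.69 beside DNMT3A and -0.00 beside DNMT3B. All 13 alternatives kept the call, at 0.65 to 0.73. The mean of the ATF4 stress list was 8.21 in siD1+3A against 8.02 in 3A+3L, and 7.87 in siD1+3B against 9.57 in 3B+3L, and its part in the difference was not tested.

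For ERV3-1 the same difference was 0.35 (adjusted p = 0.0339), with 0.25 beside DNMT3A and -0.10 beside DNMT3B. It was not called when any of the 8 arrays involved was left out, at 0.32 to 0.37.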

How the results depend on the processing

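Over the 11 depletions the count of member calls was 20, and 14 when only the groups of a comparison were fitted, 24 with a trended and robust prior, 22 with quantile normalization and 19 with siNTC-1, siNTC-2 or the nearer control. Leaving out each array in turn gave 16 to 23 calls there, 1 to 2 between the controls, 5 to 9 for 1 siRNA added, 2 to 4 between single depletions and 0 to 0 for interactions. Between the controls the count was 2 without the dimmest 40% of genes, with quantile normalization and with the trended and robust prior, against 1. ERVH48-1 changed sign with the control. It was -0.0079 in 3B+3L and -0.0092 in siD1+3B against siNTC-2, and 0.019 in siDNMT3B against siNTC-1, which are their nearer controls. With a replicate block the counts were 20, 1, 8, 3 and 0, and 1 of 170 values changed its call, ERV3-1 in siD1+3A+3B minus 3A+3B+3L at 0.28 (adjusted p = 0.0612, against 0.0497). The fit of only the groups compared ended the ERVH48-1 calls against both controls in 3A+3B+3L, siDNMT3B, 3B+3L, siD1+3B and 3A+3L and all ERV3-1 calls there (adjusted p 0.0535 to 0.226). Calls for 1 siRNA added were 8, and 11 with quantile normalization and 10 with the trended and robust prior or without the dimmest 40% of genes. Among those gained with each of these was ERVMER34-1 in siD1+3A+3B minus 3A+3B (adjusted p 0.0251, 0.0382 and 0.0278). With the trended and robust prior ERVH48-1 was also called lower than both controls in siDNMT3A and 3A+3B (adjusted p 0.0296 and 0.0338), and without the dimmest 40% of genes in siDNMT3A (0.049). ERVFRD-1 was called in siDNMT3L with quantile normalization (0.27, adjusted p = 0.0491) and, when only the groups of the comparison were fitted, in siDNMT3L (0.27, adjusted p = 0.0238) and siDNMT3B (0.24, adjusted p = 0.0312). ERVW-1 was called in siDNMT3L without replicate 1 of siNTC-1 or siNTC-2 (0.30 and 0.31). The causes were not tested. Signal close to background limits what can be seen of both syncytin genes.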
